A study of Mus musculus with 15 samples.

Results

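The secreted matrix proteases and their inhibitors were followed in NIH3T3 cells, a mouse embryonic fibroblast line, made to express Runx transcription factors. Members were taken by name alone: every gene of the array annotation called Mmp with a number, Timp1 to Timp4 or Adamts with a number, each read by its brightest probe set. This gave 37 genes of 18193, made up of 18 Mmp, 4 Timp and 15 Adamts genes, covered by 70 probe sets. The 15 Affymetrix arrays fell into 8 groups. All cells carried the retroviral vector pBabe-puro. The vector cells had no insert and were kept without 4-hydroxytamoxifen (vector, 2 arrays) or with it (4-OHT, 2 arrays). A fusion of RUNX1 with an oestrogen receptor domain, RUNX1-ER, which 4-OHT activates, was measured uninduced (2 arrays) and induced (2 arrays). The other lines expressed human RUNX1 (1 array), or mouse Runx1, Runx2 or Runx3 (2 arrays each) without induction. Cultures had grown for 7 days to confluence and then had 24 h of 0.2% ethanol with or without 4-OHT, labelled as 0.1 mM. The labels do not state which of these the constitutive lines had, nor whether a line was 1 clone or a pool. Titles call the arrays biological replicates without saying whether separate cultures were used, so the p-values reflect only how much these arrays varied, and that variation may be technical.

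Matrix metalloproteinases (MMPs) are zinc-dependent enzymes that cleave collagens and other matrix and cell surface proteins. The TIMPs bind their active site and block them, and Timp3 also blocks several ADAMTS enzymes. The ADAMTS enzymes are secreted relatives with thrombospondin repeats, several of which cut the large proteoglycans aggrecan and versican. Runx factors bind the DNA letters TGTGGT or TGCGGT, and Runx2 is known as an activator of the collagenase gene Mmp13 in bone and cartilage cells, together with AP-1 factors.

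Values are log2 RMA expression, so a difference of 1 is a doubling of signal. The median over all probe sets was 3.73. A gene was called higher or lower where the adjusted p of limma's test, over all genes, was under 0.05. Fibroblast markers were present: 10 of 11 listed genes lay above the array median on every array, up to 13.3 for Col1a2, and Lum was never above it. Adipocyte (2 of 3 listed genes measured) and endothelial (4) markers were above the median on every array for 0 genes, blood markers for 2 of 5 measured, epithelial for 2 of 6 and smooth muscle for 1 of 3. Of the epithelial markers, Krt8 averaged 4.00 in vector cells, 4.39 in the Runx1 line, 4.97 in the Runx2 line, 6.72 in the Runx3 line and 5.61 in the human RUNX1 line, and Cdh1 averaged 2.87 in vector cells and 4.21 in the Runx3 line. Against vector, 0, 1, 2 and 1 of the 6 were called in the Runx1, Runx2, Runx3 and human RUNX1 lines, all higher. Of all genes, 0.973%, 0.923%, 3.97% and 2.19% were called higher in these 4 lines. In either direction 1.7%, 2.57%, 9.37% and 7.33% were called. The fibroblast markers also moved. Of 11, 6 were called in the Runx3 line (2 higher, 4 lower) and 5 in the human RUNX1 line (1 higher, 4 lower). In each of the Runx1 and Runx2 lines 3 were called (1 higher, 2 lower). On RUNX1-ER induction 1 was called, lower, where 1.92% of all genes were called. Pdgfra averaged 11.13 in vector cells and 9.75 in the Runx3 line, and Thy1 8.70 and 7.49. The part of these markers in the results on the members was not tested. The inserted gene could be checked for the Runx1 line, where 1 Runx1 probe set averaged 9.21 against 4.65 in vector cells and another 7.23 against 4.29. The remaining Runx1 sets were not higher there. In the human RUNX1 array those 2 sets read 4.69 and 4.36, so its insert was not seen. Whether the mouse sets can detect human RUNX1 was not examined. For RUNX1-ER, an Esr1 probe set averaged 6.51 uninduced and 5.83 induced against 4.06 in vector cells. No probe set with 1 gene symbol was named Runx2, and the probe sets with several symbols were not searched. The Runx3 probe sets averaged 4.21 and 3.25 in the Runx3 line against 4.45 and 3.16 in vector cells, and where they lie relative to the inserted sequence was not examined. Across all probe sets 1 uninduced array, replicate 1, correlated more closely with vector replicate 1 (r = 0.996) than with its own replicate (0.994), Runx2 replicate 2 was closest to induced replicate 1, and both 4-OHT vector arrays were closest to vector replicate 2. Leaving out 1 array at a time left 3 members called on induction and 3 to 4 in the Runx2 line.

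Promoter windows from RefSeq (mouse GRCm38.p6), 250 bases before to 50 after the gene start, were found for 23 of the 37 members. They include 5 of the 9 members called in any comparison, namely Timp1 to Timp4 and Adamts1, and no such window was found for Mmp2, Adamts4, Adamts5 or Adamts6. The bases before the start are shown for 3 genes: Timp4, whose change was the largest among the members, and Mmp13 and Mmp3, a collagenase and a stromelysin that stayed near the bottom of the scale. Capitals mark TGTGGT or TGCGGT and the AP-1 letters TGACTCA, each on either strand (so ACCACA and TGAGTCA also count). Timp4 is on chr6:115252206-115252455, minus strand, Mmp13 on chr9:7272264-7272513, plus strand, and Mmp3 on chr9:7445572-7445821, plus strand.
Timp4: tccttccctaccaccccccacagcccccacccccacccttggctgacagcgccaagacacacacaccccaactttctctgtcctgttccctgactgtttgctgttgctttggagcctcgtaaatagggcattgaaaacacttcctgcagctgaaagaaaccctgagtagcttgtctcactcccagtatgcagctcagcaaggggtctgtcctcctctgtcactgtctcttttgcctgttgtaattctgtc
Mmp13: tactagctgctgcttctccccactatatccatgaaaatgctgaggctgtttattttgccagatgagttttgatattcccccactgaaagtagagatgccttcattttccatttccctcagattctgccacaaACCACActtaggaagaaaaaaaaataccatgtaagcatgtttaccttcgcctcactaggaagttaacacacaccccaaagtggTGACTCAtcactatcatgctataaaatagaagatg
Mmp3: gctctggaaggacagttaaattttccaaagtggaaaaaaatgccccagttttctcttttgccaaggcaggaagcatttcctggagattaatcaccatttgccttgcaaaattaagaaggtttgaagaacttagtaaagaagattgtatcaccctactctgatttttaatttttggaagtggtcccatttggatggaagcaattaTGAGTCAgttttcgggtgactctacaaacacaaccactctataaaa
The Mmp13 window holds the Runx letters from base -118 and the AP-1 letters from base -35, while Mmp3 holds the AP-1 letters from base -46 and no Runx letters. Neither set of letters is in the windows of the 4 Timp genes or of Adamts1. Runx letters were in 7 of 26 member windows (26.9%) and in 22.4% of all 32851 windows. The AP-1 letters were in 7 of 26 member windows (26.9%) and in 5.20% of all windows. Those 7 genes, Mmp1a, Mmp1b, Mmp3, Mmp7, Mmp10, Mmp12 and Mmp13, all lie in 1 stretch of chromosome 9. A match is a run of letters, not a site shown to be used.

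**Figure D1:**
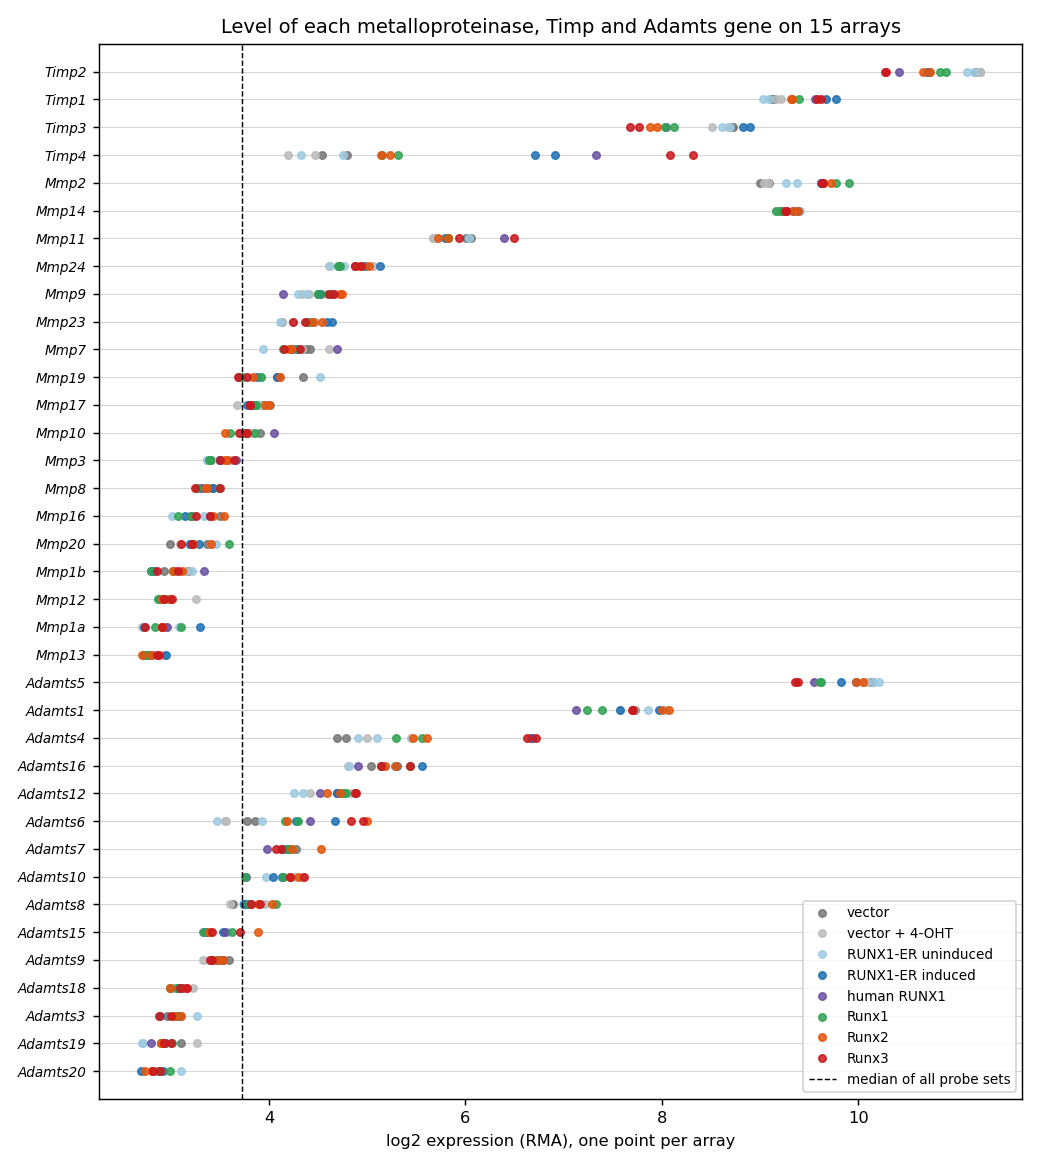
Log2 RMA expression (horizontal axis) of the 37 genes, 1 row per gene and 1 point per array, coloured by the 8 groups, with the median of all probe sets, 3.73, as a dashed line. Levels of different genes are not comparable: within its row Timp4 runs from 4.20 in vector cells with 4-OHT to 8.32 in the Runx3 line, while the points of most other genes lie close together.

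Of the 4 inhibitors, all were called in at least 1 comparison. Timp4 and Timp1 were called only higher and Timp2 only lower, each against control cells, and Timp3 was lower in each constitutive line but not in induced RUNX1-ER. Timp4 read 4.53 and 4.80 in vector cells, 4.20 and 4.47 in vector cells with 4-OHT, 4.32 and 4.76 in uninduced RUNX1-ER, 6.91 and 6.71 in induced RUNX1-ER, 5.15 and 5.31 in the Runx1 line, 5.24 and 5.14 in the Runx2 line, 8.32 and 8.08 in the Runx3 line and 7.33 in the human RUNX1 array. The Runx3, human RUNX1 and induced arrays stood above all others, and the Runx1 and Runx2 arrays lay between these and the controls without overlap. Against vector, Timp4 was higher by 3.54 (SE 0.15, limma adjusted p = 2.69e-08, n = 2 and 2) in the Runx3 line, 11.6-fold. In the human RUNX1 line it was higher by 2.66 (SE 0.19, limma adjusted p = 6.73e-06, n = 1 and 2). In the Runx1 and Runx2 lines its differences of 0.56 and 0.52 missed the threshold (limma adjusted p = 0.12 and 0.122). Both passed it when the vector cells with 4-OHT served as control (0.90, limma adjusted p = 0.00742, and 0.86, limma adjusted p = 0.00795).

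The other Timp4 probe set gave larger differences. It read 3.08 and 3.44 in vector cells, 4.86 and 4.22 in the Runx1 line, 4.26 and 4.51 in the Runx2 line, 8.94 and 8.91 in the Runx3 line and 8.09 in the human RUNX1 array. All of the line arrays were above both vector arrays. Its rise was 1.28 with Runx1 (limma adjusted p = 0.00449), 1.12 with Runx2 (limma adjusted p = 0.00873) and 5.66 with Runx3 (limma adjusted p = 6.24e-09). These adjusted p are over 34945 probe sets, not over 18193 genes. In the fit over genes, the mean of its probe sets also had Timp4 called in the Runx1 and Runx2 lines. Whether Timp4 was called in these 2 lines thus depended on how its probe sets were read. RMA shrinks differences near the bottom of the scale, and folds from there are understated.

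**Figure D2:**
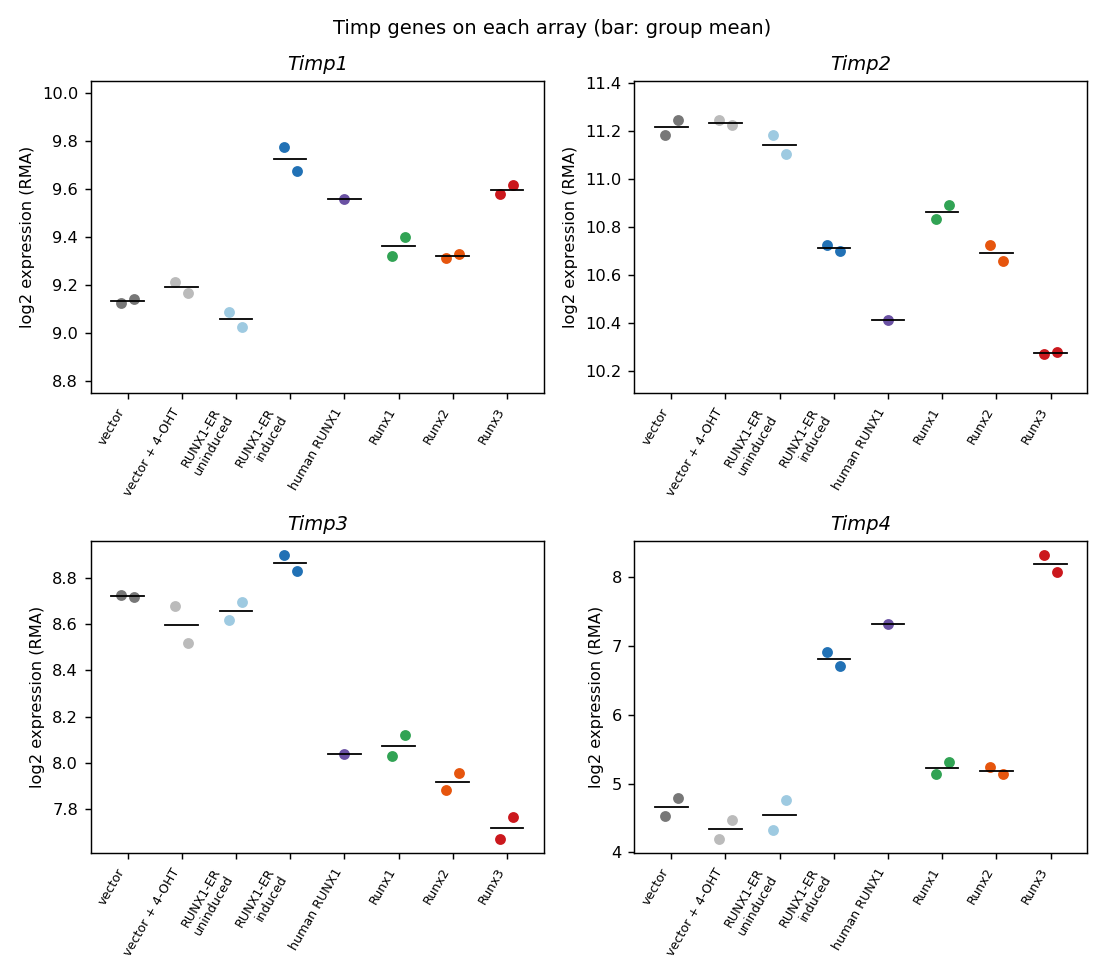
Log2 RMA expression of Timp1, Timp2, Timp3 and Timp4 on each of the 15 arrays, 1 panel per gene with its own vertical scale, grouped by line and treatment with the group mean. Timp4 and Timp1 are highest in the Runx3, human RUNX1 and induced RUNX1-ER groups, Timp2 is lower there than in vector cells, and Timp3 is low in the constitutive lines only.

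Timp1, a broad MMP inhibitor that is also known as a growth factor, read 9.13 and 9.14 in vector cells, 9.32 and 9.40 in the Runx1 line, 9.31 and 9.33 in the Runx2 line, 9.58 and 9.62 in the Runx3 line and 9.56 in the human RUNX1 array. Each line array was above both vector arrays, with the Runx3 and human RUNX1 arrays the farthest. The rise passed the test in the Runx3 line (0.46, SE 0.08, limma adjusted p = 0.00245) and the human RUNX1 line (0.42, limma adjusted p = 0.0233). The latter lost its call when either vector array was left out (limma adjusted p up to 0.105).

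Timp2 inhibits MMPs and, bound to the membrane enzyme Mmp14, also takes part in activating pro-Mmp2. It read 11.19 and 11.25 in vector cells, 10.84 and 10.89 in the Runx1 line, 10.73 and 10.66 in the Runx2 line, 10.27 and 10.28 in the Runx3 line and 10.42 in the human RUNX1 array. No line array reached the vector arrays. Timp2 differed from vector by -0.35 with Runx1 (SE 0.08, limma adjusted p = 0.0469), -0.52 with Runx2 (limma adjusted p = 0.00278), -0.94 with Runx3 (limma adjusted p = 6.44e-06, 1.92-fold lower) and -0.80 with human RUNX1 (limma adjusted p = 0.000373). The call in the Runx1 line did not survive leaving out any 1 of the 4 arrays (limma adjusted p up to 0.324) or blocking on the replicate number (limma adjusted p = 0.0642). Timp2 has 6 probe sets, of which the 5 brighter were lower in all 3 mouse lines and the dimmest, with a mean of 3.31, lay below the median of all probe sets.

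Timp3 is bound to the matrix and inhibits ADAM and ADAMTS enzymes as well as MMPs. Its values were 8.72 and 8.72 in vector cells, 8.03 and 8.12 in the Runx1 line, 7.88 and 7.96 in the Runx2 line, 7.67 and 7.77 in the Runx3 line and 8.04 in the human RUNX1 array. The line arrays were all below the vector arrays, and the Runx3 arrays were the lowest. Against vector Timp3 changed by -0.64 (SE 0.09, limma adjusted p = 0.0017) with Runx1, -0.80 (limma adjusted p = 0.000234) with Runx2, -1.0 (limma adjusted p = 1.04e-05) with Runx3 and -0.68 (limma adjusted p = 0.00267) with human RUNX1. All 4 of its probe sets were lower in the 3 mouse lines, although the other 3 did not pass the test in the Runx1 line (-0.75, -0.49 and -0.34, limma adjusted p = 0.496, 0.265 and 0.262).

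**Figure D3:**
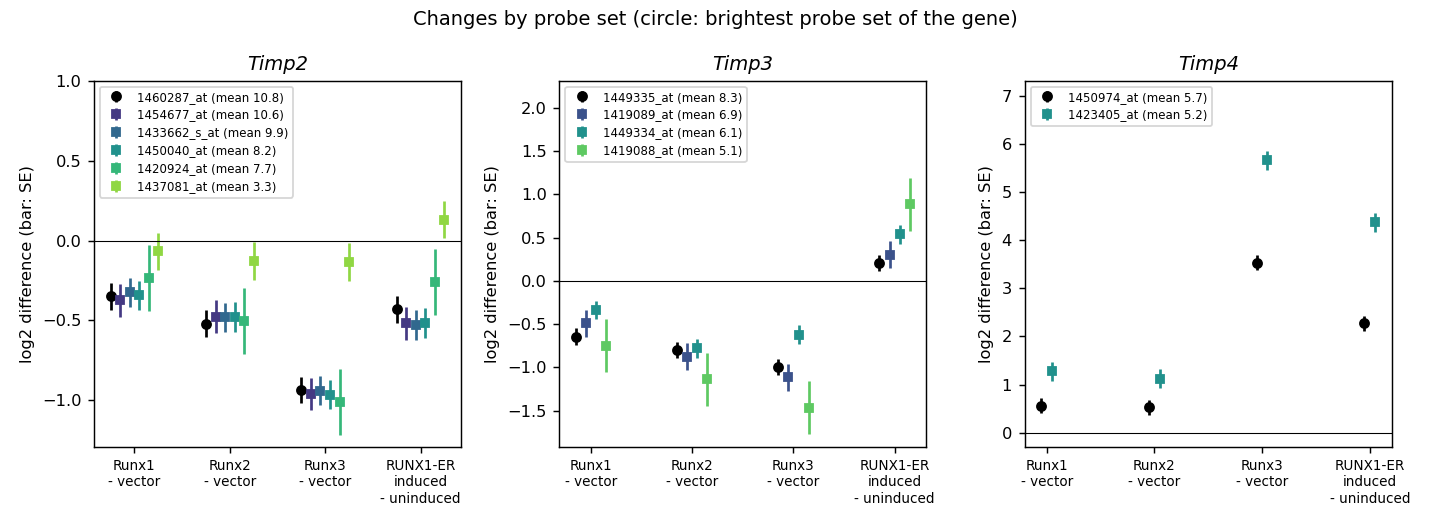
Log2 difference (vertical axis, bars are SE) from vector in the 3 mouse lines, and of induced from uninduced RUNX1-ER, for each Affymetrix probe set of Timp2, Timp3 and Timp4; the circle is the brightest set, which the other results use. The Timp3 sets lie below 0 in the 3 mouse lines and above 0 on induction, both Timp4 sets lie above 0 throughout, and the dimmest Timp2 set lies near 0.

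Mmp2, also called gelatinase A, was the only Mmp gene of 18 called in any comparison. It read 9.09 and 9.0 in vector cells, 9.77 and 9.91 in the Runx1 line, 9.64 and 9.73 in the Runx2 line, 9.63 and 9.65 in the Runx3 line and 9.62 in the human RUNX1 array. Every line array was at least as high as 9.62, above both vector arrays. Mmp2 rose by 0.79 with Runx1 (SE 0.09, limma adjusted p = 0.000344, 1.73-fold), 0.64 with Runx2 (limma adjusted p = 0.0012), 0.59 with Runx3 (limma adjusted p = 0.000639) and 0.58 with human RUNX1 (limma adjusted p = 0.00667). Its other probe set gave 0.78, 0.68 and 0.63 in the mouse lines.

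The other 17 Mmp genes were called in 0 of the 13 comparisons, with values from 2.70 to 9.40 and differences between -0.52 and 0.51. Some were called under other processing. Against vector cells with 4-OHT, Mmp11 was higher in the Runx3 line and Mmp9 in the Runx2 line. Mmp11 read 5.67 and 5.67 in those vector cells, 6.49 and 5.94 in the Runx3 line and 6.39 in the human RUNX1 array. With the mean of its probe sets, Mmp19 was lower in the Runx3 line than in vector cells. By its brightest probe set Mmp14, the membrane enzyme that activates pro-Mmp2, stayed between 9.16 and 9.40 over all arrays. A dimmer Mmp14 set read 8.20 and 8.30 in vector cells, 8.61 and 8.58 in the Runx2 line and 8.52 and 8.56 in the Runx3 line. The dimmest read 6.90 and 6.67, 7.21 and 7.07, and 7.13 and 7.04 in the same groups. The brightest set was also above both vector arrays in these lines, and in the Runx1 line every set overlapped them. Mmp13, the collagenase with Runx letters in its window, read 2.73 and 2.76 in vector cells, 2.77 and 2.74 in the Runx1 line, 2.71 and 2.80 in the Runx2 line and 2.88 and 2.86 in the Runx3 line, and never passed 2.95. The arrays of the Runx1 and Runx2 lines overlapped the vector arrays, and all lay below the median of all probe sets, where RMA leaves little room to see a difference. The nearest to a call was Mmp9, gelatinase B, in the human RUNX1 line (-0.37, limma adjusted p = 0.0546). The 9 Mmp genes of the chromosome 9 cluster (Mmp13, Mmp12, Mmp1b, Mmp3, Mmp1a, Mmp10, Mmp8, Mmp20 and Mmp7, chr9:7272514-7699585 in GRCm38.p6) spanned 427.1 kb and had values from 2.70 to 4.69. None of the 9 was called.

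**Figure D4:**
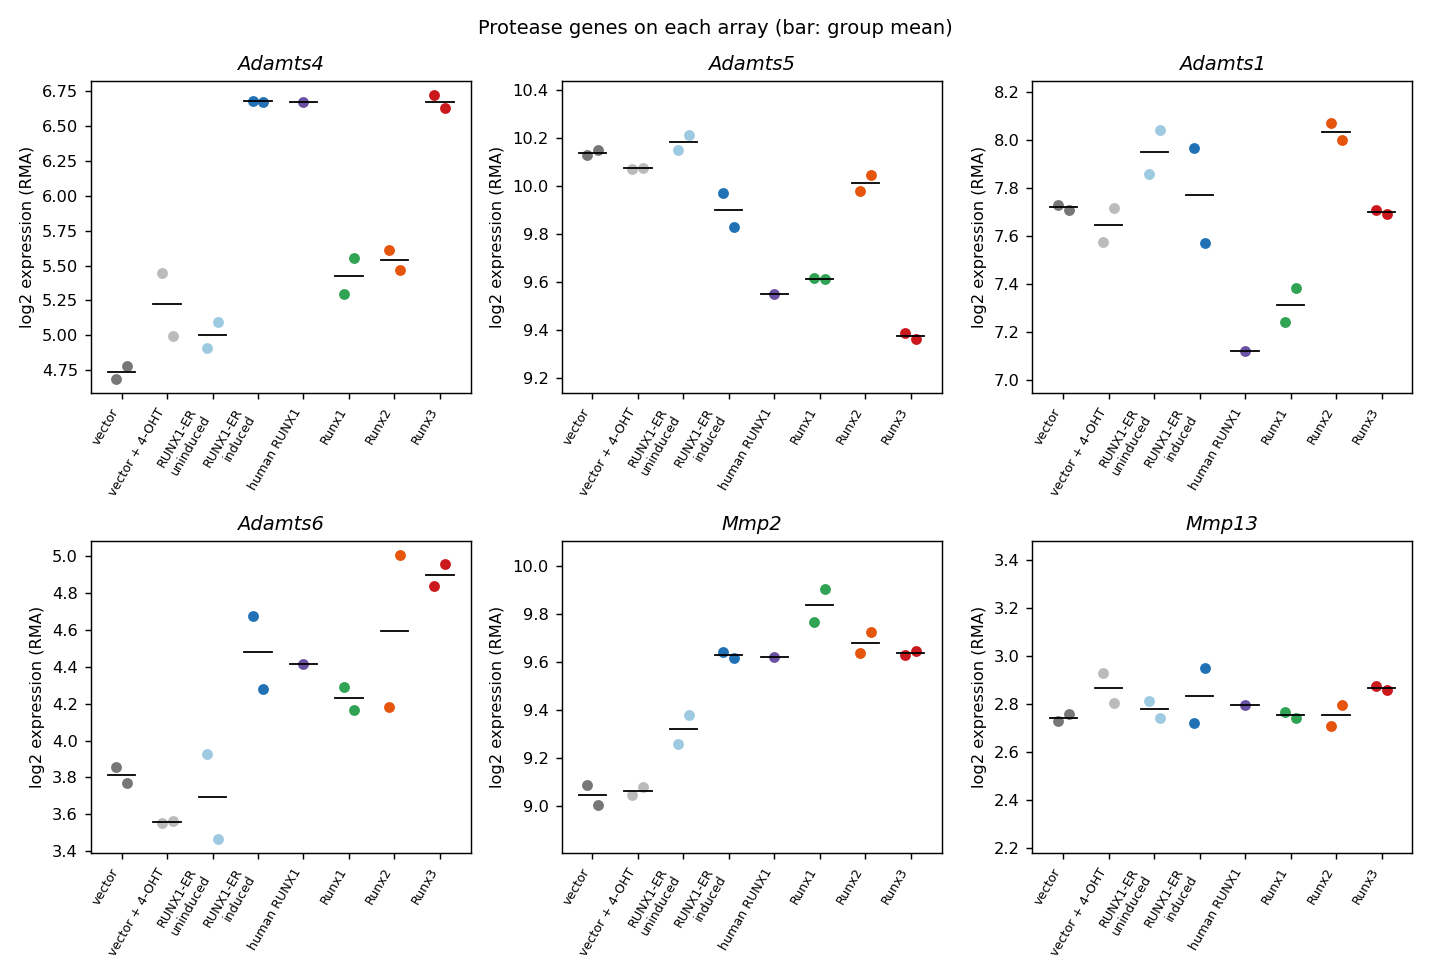
Log2 RMA expression on each of the 15 arrays (points; bars are group means) of the called proteases Mmp2, Adamts1, Adamts4, Adamts5 and Adamts6 and, for comparison, Mmp13, 1 panel per gene with its own vertical scale. Mmp2 is higher in the 4 constitutive lines, Adamts4 is highest in the Runx3, human RUNX1 and induced RUNX1-ER groups, and Mmp13 stays at or below 2.95.

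Among the 15 Adamts genes, Adamts4 rose, Adamts5 fell in 3 of the 4 constitutive lines, Adamts6 was higher in the Runx3 line and Adamts1 lower in the human RUNX1 line, and both were called in 1 further comparison each. Adamts4 and Adamts5 are the main aggrecanases. Adamts4 read 4.69 and 4.78 in vector cells, 5.45 and 5.00 in vector cells with 4-OHT, 5.30 and 5.55 in the Runx1 line, 5.61 and 5.47 in the Runx2 line, 6.72 and 6.63 in the Runx3 line and 6.67 in the human RUNX1 array. The Runx3 and human RUNX1 arrays were well apart from both sets of vector arrays, whereas the Runx1 arrays overlapped those with 4-OHT. Against vector it was higher by 1.94 (SE 0.14, limma adjusted p = 1.53e-06, 3.84-fold) in the Runx3 line and by 1.94 (SE 0.17, limma adjusted p = 3.24e-05) in the human RUNX1 line. The rises of 0.69 with Runx1 (limma adjusted p = 0.0216) and 0.81 with Runx2 (limma adjusted p = 0.00622) were not called against vector cells with 4-OHT (0.20, limma adjusted p = 0.57, and 0.32, limma adjusted p = 0.303). The Runx1 call was also lost without vector replicate 1 or 2 or Runx1 replicate 2, and with only the groups compared. The Runx2 call was lost without vector replicate 1 or Runx2 replicate 1. The second Adamts4 probe set has a mean of 4.09 and was not called against vector in any line (0.47 in the Runx3 line, limma adjusted p = 0.102).

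Adamts5 read 10.13 and 10.15 in vector cells, 9.62 and 9.61 in the Runx1 line, 9.98 and 10.05 in the Runx2 line, 9.39 and 9.36 in the Runx3 line and 9.55 in the human RUNX1 array. The Runx2 arrays stayed close below the vector arrays and the other lines were lower. Adamts5 fell by 0.53 (limma adjusted p = 0.00419) in the Runx1 line, by 0.76 (SE 0.08, limma adjusted p = 5.26e-05, 1.70-fold lower) in the Runx3 line and by 0.59 (limma adjusted p = 0.00424) in the human RUNX1 line. Its difference in the Runx2 line was -0.13 (limma adjusted p = 0.603). The call in the Runx1 line was lost without vector replicate 2 and with the mean of the gene's probe sets. Of its other sets, 1 read 9.66 and 9.65 in vector cells and 9.10 and 9.19 in the Runx1 line. Another read 9.25 and 9.55, and 9.15 and 9.05, in the same groups. The dimmest read 3.03 and 3.05, and 2.97 and 3.14, below the median of all probe sets.

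Adamts6 read 3.86 and 3.77 in vector cells and 4.84 and 4.95 in the Runx3 line, a rise of 1.08 (SE 0.22, limma adjusted p = 0.00667) with no overlap. Without vector replicate 2 or without Runx3 replicate 2 the limma adjusted p was 0.0593 and 0.0572. Its other probe set also rose in the Runx3 line (0.61, limma adjusted p = 0.0106) and in the Runx2 line (0.65, limma adjusted p = 0.0184). The brightest Adamts6 set read 4.29 and 4.17 in the Runx1 line, 4.18 and 5.00 in the Runx2 line and 4.41 in the human RUNX1 array. All were above both vector arrays but not called. In the Runx2 line it was called with the mean of its probe sets, with an intensity trend in the prior and against vector cells with 4-OHT. Adamts1, which cuts versican and lies 55 kb from Adamts5 on chromosome 16, read 7.73 and 7.71 in vector cells and 7.12 in the human RUNX1 array. It was lower there by -0.60 (limma adjusted p = 0.0315), a call lost without either vector array (-0.59 and -0.61). The call was also lost against vector cells with 4-OHT (-0.53) and after the arrays were centred and quantile-normalized again (-0.47). In the Runx1 line Adamts1 read 7.24 and 7.39, below both vector arrays, and was called only with an intensity trend in the prior. The Runx2 arrays were above both vector arrays, and the Runx3 arrays read 7.71 and 7.69. The remaining 11 Adamts genes, with values between 2.70 and 5.56, had no call.

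In all, 5 of 37 members were called in the Runx1 line against vector, where 1.7% of all genes were called. Of these 2 were higher and 3 lower, against 0.973% and 0.726% of all genes. In the Runx2 line 4 were called (2.57% of all genes), 2 higher (0.923%) and 2 lower (1.65%). In the Runx3 line 8 were called (9.37%), 5 higher (3.97%) and 3 lower (5.4%). In the human RUNX1 line 8 were called (7.33%), 4 higher (2.19%) and 4 lower (5.14%). The median difference of the members was -0.02, 0.03, 0.03 and 0.05 in these lines, against -0.01, -0.01, 0.00 and -0.05 over all genes. The 4 comparisons share the vector arrays. Of the 18 members above the array median on every array 8 were called in some comparison, of 6 above it on some arrays 1, Adamts6, and of 13 never above it 0.

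**Figure D5:**
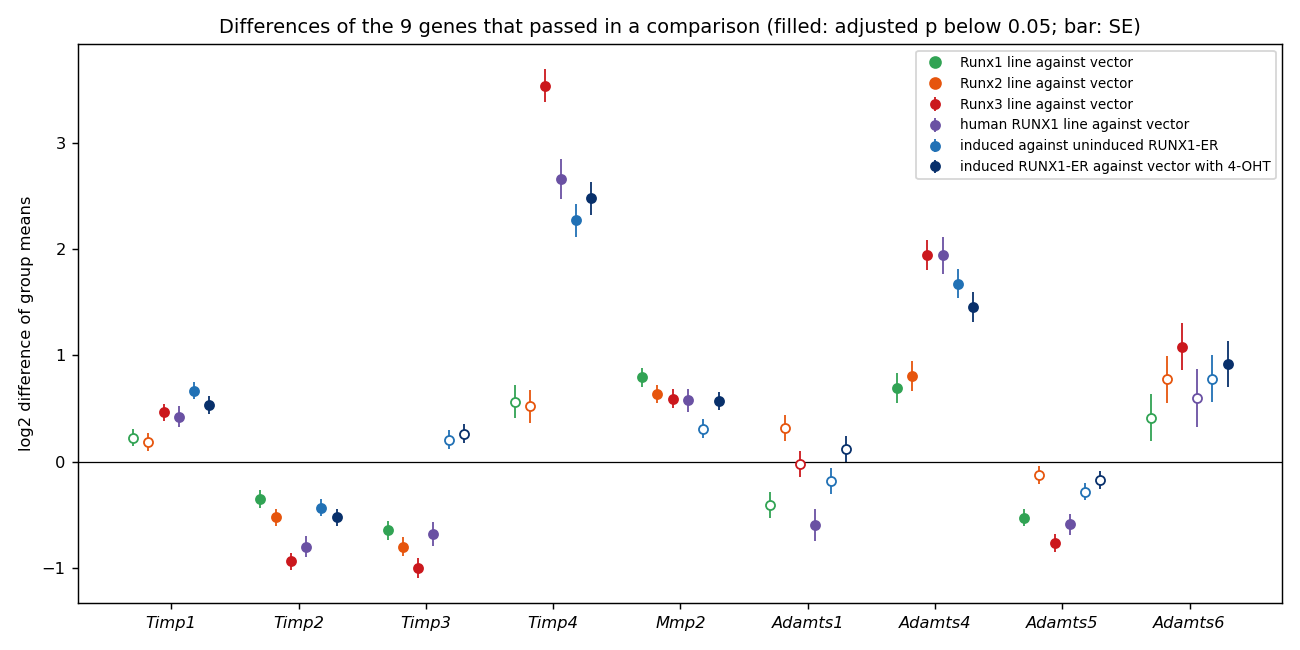
Log2 differences of group means (vertical axis, bars are SE) of the 9 members called in any comparison, for the 4 constitutive lines against vector and for induced RUNX1-ER against both of its controls; filled points have a limma adjusted p below 0.05. In the Runx3, human RUNX1 and induced RUNX1-ER comparisons Timp4 and then Adamts4 have the greatest positive differences, which is not so in the Runx1 line, where Mmp2 (0.79) is above both, or in the Runx2 line, where Adamts4 (0.81) is the highest. Timp3 is below 0 in the 4 constitutive lines and slightly above 0 in both comparisons of induced RUNX1-ER.

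Between the mouse lines the clearest differences concerned Timp4 and Adamts4. In Runx3 cells Timp4 exceeded Runx1 cells by 2.97 (SE 0.15, limma adjusted p = 2.4e-07) and Runx2 cells by 3.01 (limma adjusted p = 9.98e-07). Adamts4 was higher there by 1.25 (limma adjusted p = 0.000111) and 1.14 (limma adjusted p = 0.00058). Timp2 was lower with Runx3 than with Runx1 (-0.59, limma adjusted p = 0.000555) or Runx2 (-0.42, limma adjusted p = 0.0121). Adamts5 was lower with Runx3 than with Runx2 (-0.64, limma adjusted p = 0.000866) and Timp3 lower than with Runx1 (-0.36, limma adjusted p = 0.032). The Timp2 call against the Runx2 line was lost without Runx2 replicate 1 or either Runx3 array (limma adjusted p up to 0.0903), and the Timp3 call without any 1 of its 4 arrays (limma adjusted p up to 0.194). These are 4 members of 37 called against the Runx1 line (6.52% of all genes), 2 higher (2.39%) and 2 lower (4.13%), and 4 against the Runx2 line (3.76%), 2 higher (1.85%) and 2 lower (1.91%).

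Between the Runx2 and Runx1 lines 2 members were called (1.5% of all genes), both higher in the Runx2 line (0.511% of all genes were higher and 0.989% lower). Adamts1 read 8.07 and 8.0 in the Runx2 line and 7.24 and 7.39 in the Runx1 line, with no overlap and a difference of 0.72 (SE 0.12, limma adjusted p = 0.0102). Its neighbour Adamts5 differed by 0.40 (limma adjusted p = 0.03). Neither call was firm: Adamts1 lost it without Runx1 replicate 1 or 2 or Runx2 replicate 1 (limma adjusted p up to 0.113), and Adamts5 without any 1 of the 4 arrays (limma adjusted p up to 0.175). Timp4 differed by only -0.04 (limma adjusted p = 0.96).

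Induced and uninduced RUNX1-ER cells are of 1 line and differ by 24 h with 4-OHT. On induction Timp4, Adamts4 and Timp1 rose and Timp2 fell, so that 4 members of 37 were called where 1.92% of all genes were, 3 higher (1.01%) and 1 lower (0.912%). Timp4 went from 4.32 and 4.76 uninduced to 6.91 and 6.71 induced, with a rise of 2.27 (SE 0.15, limma adjusted p = 7.97e-06, 4.82-fold). The other Timp4 probe set went from 3.31 and 3.02 to 7.54 and 7.54, a rise of 4.37 (limma adjusted p = 1.69e-07). Neither set had overlapping arrays.

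Adamts4 went from 4.91 and 5.10 to 6.68 and 6.67, a rise of 1.68 (SE 0.14, limma adjusted p = 3.88e-05, 3.19-fold). Timp1 went from 9.09 and 9.03 to 9.77 and 9.68, a rise of 0.67 (limma adjusted p = 0.00068). Timp2 went from 11.18 and 11.11 to 10.73 and 10.70 and fell by 0.43 (limma adjusted p = 0.0138). All 3 genes had induced arrays apart from the uninduced ones, but the Timp2 call was lost without any 1 of the 4 arrays (limma adjusted p up to 0.133).

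Mmp2, higher in every constitutive line, read 9.26 and 9.38 uninduced and 9.65 and 9.62 induced, and its difference of 0.31 was not called (limma adjusted p = 0.118). Timp3 read 8.62 and 8.70 uninduced and 8.90 and 8.83 induced. The induced Timp3 arrays were thus the higher ones, and the difference of 0.21 was not called (limma adjusted p = 0.403), although 1 of its other probe sets rose by 0.54 (limma adjusted p = 0.0262). Adamts5 differed by -0.28 (limma adjusted p = 0.138) and Adamts6 by 0.78 (limma adjusted p = 0.119).

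Against vector cells that also had 4-OHT, 6 members were called in induced RUNX1-ER (4.16% of all genes), 5 higher (2.9%) and 1 lower (1.26%). The vector arrays with 4-OHT read 9.21 and 9.17 for Timp1, 11.25 and 11.23 for Timp2, 9.05 and 9.08 for Mmp2 and 3.55 and 3.57 for Adamts6, against 4.68 and 4.28 for Adamts6 in the induced arrays. The induced arrays of the 6 called genes did not overlap these. Timp4 was higher by 2.48 (limma adjusted p = 3.36e-06), Adamts4 by 1.45 (limma adjusted p = 7.98e-05), Adamts6 by 0.92 (limma adjusted p = 0.0361), Mmp2 by 0.57 (limma adjusted p = 0.00258) and Timp1 by 0.53 (limma adjusted p = 0.00247), and Timp2 was lower (-0.52, limma adjusted p = 0.00254). The Adamts6 call was lost without any 1 of the 4 arrays (limma adjusted p up to 0.281) and with the replicate block (limma adjusted p = 0.0504). The uninduced line against vector had 0 members called (0.044% of all genes) and 4 with an unadjusted p under 0.05 by limma. The vector cells with 4-OHT against those without had 0 members called (0% of all genes) and 2 with an unadjusted p under 0.05. Adamts4 differed there by 0.49 (limma adjusted p = 0.57), the arrays being 5.45 and 5.00 with 4-OHT and 4.69 and 4.78 without.

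Taking the change of the vector cells with 4-OHT away from the change on induction left 3 members called, all higher (0.605% of all genes were called, 0.489% higher and 0.115% lower). They were Timp4 (2.60, SE 0.22, limma adjusted p = 0.000126), Adamts4 (1.19, SE 0.20, limma adjusted p = 0.0131) and Timp1 (0.61, SE 0.12, limma adjusted p = 0.0322). Timp2 was not called (-0.45, limma adjusted p = 0.119). Leaving out any 1 of the 8 arrays ended the Timp1 call (limma adjusted p up to 0.152). The Adamts4 call was lost without vector replicate 1 or 2, uninduced replicate 1, or induced replicate 1 or 2 (limma adjusted p up to 0.075), and the Timp4 call was not lost in any of these.

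A comparison added after the values were seen set the change on induction against the change of the mouse Runx1 line from vector, and 3 members differed, all with the more positive change on induction (0.841% of all genes differed, 0.462% that way and 0.379% the other). Timp3 differed by 0.85 (SE 0.13, limma adjusted p = 0.00564), with -0.64 in the Runx1 line and 0.21 on induction. Timp4 differed by 1.71 (limma adjusted p = 0.00184). Adamts4 differed by 0.98 (limma adjusted p = 0.0361), a call lost without any 1 of the 8 arrays (limma adjusted p up to 0.177) and with the replicate block (limma adjusted p = 0.0561). Timp2 differed by -0.08 (limma adjusted p = 0.909), Timp1 by 0.44 (limma adjusted p = 0.141) and Mmp2 by -0.48 (limma adjusted p = 0.133). In vector cells, 4-OHT itself went with a difference of -0.12 for Timp3 and -0.33 for Timp4 (limma adjusted p = 0.855 and 0.75). The constitutive human RUNX1 array had Timp3 lower by -0.68 from vector, on the same side as the mouse Runx1 line. The fusion and the time since expression began differ between induced RUNX1-ER and both constitutive lines and cannot be told apart.

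Other genes of the cell surface proteolysis these enzymes belong to were read from a list of 49, of which 47 were measured. In the Runx1 line 1 was higher, Adam19 (0.72, limma adjusted p = 0.000615), and in the Runx2 line 1 was lower, Plat, tissue plasminogen activator (-0.53, limma adjusted p = 0.0171). In the Runx3 line 1 was higher, the urokinase receptor Plaur (0.82, limma adjusted p = 0.000106), and 8 were lower, where 3.97% of all genes were higher and 5.4% lower. Leaving out 1 array at a time gave 5 to 8 called genes in place of 9. The lower genes with the greatest differences were Reck, a membrane-bound MMP inhibitor (-0.92, limma adjusted p = 0.00115), Plat (-0.70, limma adjusted p = 0.000802) and the secreted serine protease Htra1 (-0.64, limma adjusted p = 0.023). In the human RUNX1 line Adam19 and Fap were higher and Adam17 and Cd44 lower, 4 genes where 7.33% of all genes were called, and without either vector array 1 to 2 genes were called. The single calls in the Runx1 and Runx2 lines stand where 1.7% and 2.57% of all genes were called, and the Runx2 count was 0 to 1 when an array was left out. On induction 4 were called where 1.92% of all genes were: Plaur was higher (0.42, limma adjusted p = 0.0479) and Ctsb, Plat and Adam19 lower (-0.52, -0.47 and -0.41). With any 1 of the 4 arrays left out only 0 to 1 genes of the list were called. The difference of Adam19 between induction and the Runx1 line's change was itself called (-1.13, limma adjusted p = 0.000495).

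Among 15 measured genes for substrates of ADAMTS enzymes, calls against vector were all lower. Versican, Vcan, averaged 7.74 in vector cells, 6.81 in the Runx1 line and 6.87 in the Runx3 line and fell by 0.93 (limma adjusted p = 0.00121) and 0.87 (limma adjusted p = 0.000492). Decorin, Dcn, was lower in the Runx1 (-0.84), Runx2 (-0.91) and Runx3 (-1.02) lines. It averaged 5.30 in vector cells, 4.88 in vector cells with 4-OHT and 4.59 in uninduced RUNX1-ER, against 4.46, 4.38 and 4.28 in these lines. Its falls are thus smaller against the vector cells with 4-OHT. Thrombospondin 2, Thbs2, was lower in the Runx3 line (-1.33, limma adjusted p = 3.49e-06). This makes 2 genes lower in the Runx1 line (0.726% of all genes were lower), 1 in the Runx2 line (1.65%), 4 in the Runx3 line (5.4%) and 3 in the human RUNX1 line (5.14%). For the human RUNX1 line only the vector arrays were left out in turn. Leaving out 1 array at a time gave 1 called gene in the Runx1 line whichever array it was, 0 to 2 in the Runx2 line, 3 to 4 in the Runx3 line and 3 in the human RUNX1 line.

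By RefSeq positions, 3 Timp genes lie inside synapsin genes: Timp1 in Syn1 on chromosome X, Timp3 in Syn3 on chromosome 10 and Timp4 (chr6:115244444-115252205) in Syn2. Over all arrays Syn1 read 4.65 to 5.25, Syn2 3.35 to 4.14 and Syn3 3.36 to 4.03, and none of them was called in any comparison.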

How the data were processed

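Per the labels' protocols, the authors read Affymetrix arrays with GCOS and made the deposited log2 values with RMA. No version or probe-set definition is named in the labels. RMA forces arrays to 1 distribution, so a change in total RNA would not show, and it shrinks differences of dim probe sets. The number of arrays limits the precision. Of 45101 probe sets, 34945 had 1 gene symbol, 932 several and 9160 none, and 64 were controls, left out. All 37 member symbols matched RefSeq. limma 3.58.1 (R 4.3.3; lmFit, eBayes) was fitted to all 15 arrays with 1 coefficient per group, on 7 residual plus 5.65 prior degrees of freedom, with two-sided tests and Benjamini-Hochberg adjustment over 18193 genes in each of 13 comparisons. The adjusted p of a gene's other probe sets came from a separate fit over the 34945 probe sets with 1 symbol, adjusted over those. They are thus not on the same scale as the adjusted p over genes. The single human RUNX1 array was assumed to vary like the others. Named were the members called in any comparison, all Timp genes, neighbours by position, and up to 4 called genes of the proteolysis list in each comparison; Mmp13, Mmp14 and Mmp9 and the substrate genes were chosen after their values were seen. The members, gene lists and tests were chosen with earlier results of these data known. On simulated data for the Runx3 line against vector (18193 genes), 38 of 67 changes of 0.5, 65 of 67 of 1 and 66 of 66 of 2 were called, and 14 of 17993 unchanged genes.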

Additional observations from a re-analysis of the deposited data

Results flagged for a closer look

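Comparisons of a change, in which an effect itself was tested for a difference, picked out 6 values. On RUNX1-ER induction beyond the change of vector cells with 4-OHT, Timp4 differed by 2.60, Adamts4 by 1.19 and Timp1 by 0.61. On induction beyond the change of the mouse Runx1 line, a comparison added after the values were seen, Timp4 differed by 1.71, Adamts4 by 0.98 and Timp3 by 0.85.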

How the results depend on the processing

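Of 51 pairs of a gene and a comparison that were called, 22 were called under every alternative, 35 whichever single array was left out, and 0 changed sign under any. These pairs are of the 9 members called in any comparison, and of their 66 further pairs that were not called, 17 were called under some alternative. The single human RUNX1 array was never itself left out, so pairs of that line were tried only without a vector array. The other 28 members were left out of this tally. Of those, Mmp9, Mmp11 and Mmp19 were called under some alternative that kept every array. With only the groups compared in the fit, the members called were 0 (of 8) in the human RUNX1 line, 2 (of 4) on induction, 2 (of 6) in induced RUNX1-ER against vector with 4-OHT, 3 (of 5) in the Runx1 line, 2 (of 4) in the Runx2 line, 0 (of 2) between the Runx2 and Runx1 lines and 2 (of 4) between the Runx3 and Runx2 lines; these fits have fewer arrays to estimate the spread. With an intensity trend in the prior, 7 were called on induction, 8 between the Runx3 and Runx1 lines and 5 for induction beyond the Runx1 line's change. With the mean of a gene's probe sets 1 was called between the Runx2 and Runx1 lines. The cause of these last shifts was not tested. Leaving out 1 array at a time gave 2 to 4 called in the Runx1 line, 1 to 3 for induction beyond 4-OHT and 0 to 1 between the Runx2 and Runx1 lines. Same-numbered arrays did not deviate together (correlations from -0.12 to 0.12 over 21 pairs of groups, 1 over 0.1), so the numbers were not taken to pair them. With the replicate block, 4 members were called in the Runx1 line, 4 in the Runx2 line, 8 in the Runx3 line, 4 on induction and 3 for induction beyond 4-OHT. The number of all genes called moved with the settings too. Apart from leaving out 1 array, it was 93 to 638 on induction, where 349 were called as reported. It was 709 to 1616 between the Runx3 and Runx1 lines (1186 as reported) and 194 to 541 in the Runx1 line (309). Between the Runx2 and Runx1 lines it was 25 to 464 (273).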
